A study of Saccharomyces cerevisiae with 8 samples.

Results

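The unstressed growth course of the Saccharomyces cerevisiae flor wine strain CECT10094 was described here, as gene expression in the culture grown for 10 h without ethanol set against the same strain 1 h after its transfer to fresh medium. The comparison was chosen by its labels alone and used 2 of the 8 samples of the series. The series covered 2 strains, CECT10094 (written PE35M in the labels) and the agave isolate Temohaya-MI26 (TEMOHAYA-26 in the labels), each at 0 and 10% (v/v) ethanol and at an early and a late time. Both samples compared were CECT10094 at 0% ethanol. They came from flasks of GPY, a medium of yeast extract, peptone and glucose, that were inoculated to an OD600 of 0.1 from a GPY preculture and shaken at 28 °C. The label of the late sample gave exponential phase and the growth protocol mid-exponential phase, whereas the methods placed the 10 h sampling after the exponential phase. Each condition was the median of 3 slides from separate cultures, and no value of a single slide was used here.

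Yeast in fresh glucose medium devotes much of its transcription to making ribosomes and the factors that assemble them. As glucose and other nutrients run down, these genes are turned down, and genes for other transporters, storage carbohydrates, vacuolar proteases and the use of ethanol are turned up. Genes for respiration and for sterol and heme synthesis also depend on oxygen, which a dense culture uses quickly.

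The values were log2 ratios of the sample, labelled with Cy5, to a pool of all samples, labelled with Cy3, on spotted cDNA arrays, with no exchange of dyes. Of 6152 open reading frames (ORFs), 5980 had a value at both times, 65 only at 10 h and 75 only at 1 h. The column medians were 0.32 at 10 h and -0.22 at 1 h, and the median difference over ORFs was 0.58. All differences below are 10 h minus 1 h on the log2 scale with that median taken off, and are called relative differences. The spots of 2 controls, which carry no yeast gene, had relative differences of 0.63 and 0.55. Some gene list medians below were of about this size, such as 0.67 for hexose transporters and 0.57 for ethanol and acetate. The medians for thiamine (0.63) and glycogen (0.58) were as well. A gene was called when its distance from the mean of all ORFs passed the number of standard deviations (SD 0.93) given in the study's methods, which put the limits at 1.85 and -1.81. A call of this kind picks the tails and tests nothing, because 1 column per time leaves no replicate error. The Temohaya-MI26 course without ethanol was the only repeat of the contrast, and limma was fitted over both strains to find changes common to them.

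At 10 h, 173 ORFs (2.89%) were called higher and 171 (2.86%) were called lower than at 1 h. The counts of calls in the gene lists below are to be read against these shares. Relative differences ran from 4.98 for ADH4 to -3.95 for NDE1. Beyond 1 on the log2 scale lay 787 ORFs upward (13.2%) and 728 downward (12.2%). The last ORF called higher was LPX1, at 1.85, and the first left out was INP52, also at 1.85. On the other side MAK21 was called, at -1.81, and RIP1 was not, at -1.81. In the fit over both strains 755 of 5542 ORFs were higher late (13.6%) and 603 lower (10.9%) at an adjusted p under 0.05. These included 143 of the 153 ORFs called higher that could be tested and 163 of the 168 called lower, but the columns that made the calls also enter the fit, so this overlap is no independent support. With the columns quantile normalized the same fit called 46 higher and 96 lower, and with the columns not centred 1322 higher and 299 lower. That p concerns what the strains had in common and says nothing of variation between cultures of CECT10094.

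**Figure D1:**
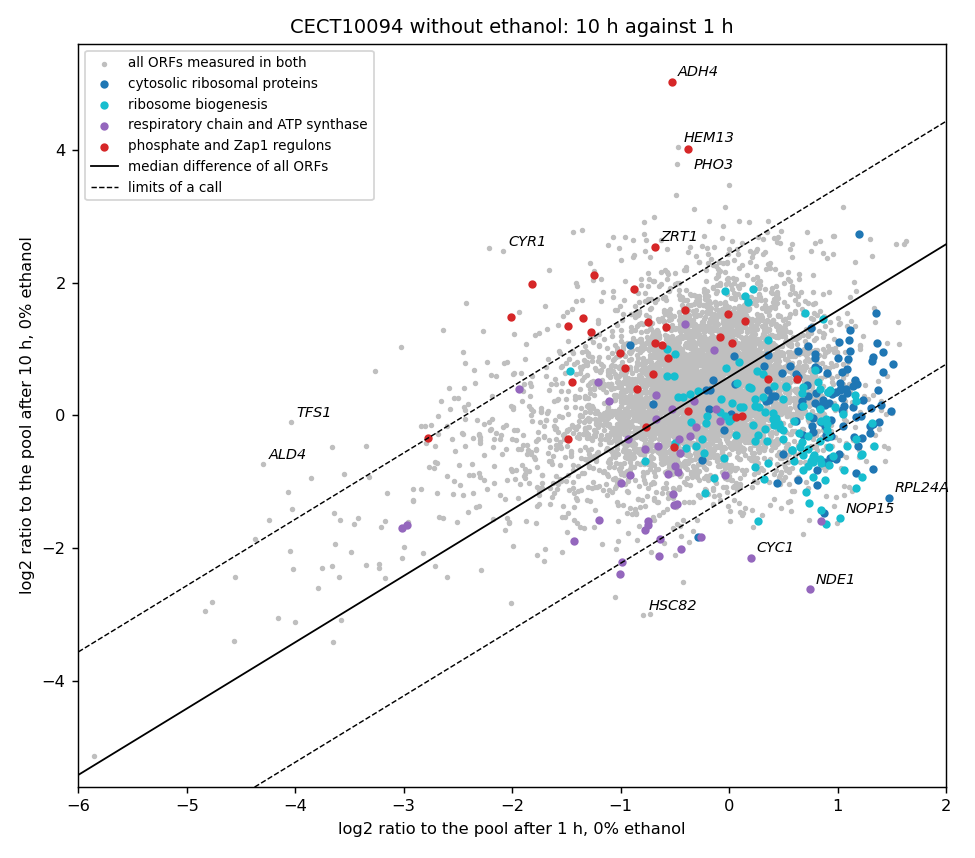
Log2 ratio to the pool after 10 h (vertical axis) against that after 1 h (horizontal axis) for each ORF of CECT10094 at 0% ethanol, with gene groups in colour, the median difference of 0.58 as a solid line and the limits of a call as dashed lines. Ribosomal protein and ribosome biogenesis genes lie mostly below the solid line, at the right, and ADH4, HEM13 and PHO3 lie at the top.

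Genes of protein synthesis were lower at 10 h. Small-subunit proteins of the cytosolic ribosome had a median relative difference of -1.34, with 15 of 49 measured members called lower and none higher. The lower calls made up 30.6% of them, against 2.86% of all ORFs. RPS10A had log2 ratios of -1.48 at 10 h and 0.87 at 1 h, a relative difference of -2.93. RPS20 stood at -0.80 at 10 h and 1.33 at 1 h, a relative difference of -2.71. The paralogs RPS18A and RPS18B, which encode the same protein, had relative differences of -2.22 and -2.62. Of the 49 members, 47 were below 0, and RPS27A was the highest at 0.11.

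Large-subunit proteins had a median of -1.10, with 9 of 63 called lower (14.3%) and none higher. RPL24A was the second-lowest named gene of the comparison, at -1.244 at 10 h and 1.477 at 1 h, a relative difference of -3.30 or 9.85-fold. RPL27A, RPL34B, RPL31A and RPL35B were called lower as well, with relative differences between -2.44 and -2.17. Values above 0 occurred in 4 members, and RPL20B was highest at 1.39. Its near copy RPL20A was at -2.14. Most ribosomal protein genes exist as such pairs, and cDNA spots of a pair can hybridise with transcripts of both. At 1 h, 7 small-subunit and 15 large-subunit genes on the array had no value, so the lists are incomplete.

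Factors that process ribosomal RNA and assemble ribosomes had a median of -1.15, and 33 of 127 were called lower. The lowest 5 act on the large subunit or on its precursor. NOP15, a nucleolar factor of large-subunit maturation, had log2 ratios of -1.55 at 10 h and 1.02 at 1 h, a relative difference of -3.15. RLP24, which holds the place of a ribosomal protein in the precursor, had -1.64 at 10 h and 0.89 at 1 h, a relative difference of -3.11. MRT4, CIC1 and NSA2 were at -2.85, -2.84 and -2.73. Another 18 members lay above 0, up to UTP22 at 1.55, which was not called. PNO1, a factor of small-subunit maturation outside the list, was at -1.20 at 10 h and 1.06 at 1 h, a relative difference of -2.85.

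The machinery around the ribosome moved the same way. RNA polymerases I and III, which transcribe ribosomal RNA and tRNA, had a median of -1.19 with 4 of 20 called lower. These were RPC82 at -2.45, RPA14 at -2.20, RPA43 at -2.15 and RPC40, a subunit of both enzymes, at -1.83. RPA14 overlaps the annotated ORF YDR157W, and a cDNA spot does not tell them apart. Translation factors had a median of -1.12, with 10 of 32 called lower. The elongation factor gene EFB1 had log2 ratios of -1.07 at 10 h and 1.06 at 1 h, a relative difference of -2.71. Initiation factors followed, with TIF11 at -2.59, the cap-binding protein CDC33 at -2.54 and its partner TIF4631 at -2.28. Cytosolic aminoacyl-tRNA synthetases had a median of -1.08, but 1 of 17 was called, the methionyl enzyme MES1 at -2.30. DPS1, the aspartyl enzyme, was at 1.08.

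The lists of pyrimidine and purine synthesis had different medians. Pyrimidine genes had a median of -1.19, with 4 of 9 called lower. The CTP synthase gene URA7 had log2 ratios of -0.49 at 10 h and 1.47 at 1 h, a relative difference of -2.54. URA1, URA5 and the salvage gene FUR1 were at -2.40, -2.18 and -1.97. Purine genes had a median of 0.67 with 2 of 21 called, both lower. They were PRS3, whose enzyme makes the precursor shared with pyrimidines, at -2.21, and GUA1, the GMP synthase, at -2.04. ADE17, which acts at the end of the pathway to IMP, was the highest at 1.75 and was not called. The difference between the branches was not tested.

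In both strains the fall was found in these lists. In the limma fit, 39 of 46 small-subunit genes, 40 of 56 large-subunit genes and 77 of 121 biogenesis genes were lower late. Of all ORFs tested, 10.9% were lower late. The median over Temohaya-MI26 was -2.72 for the small subunit, -1.99 for the large subunit and -1.65 for biogenesis. In CECT10094 the small-subunit genes stood 0.09 below the column median at 10 h and 1.22 above it at 1 h. The larger distance from the column median was that at 1 h.

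**Figure D2:**
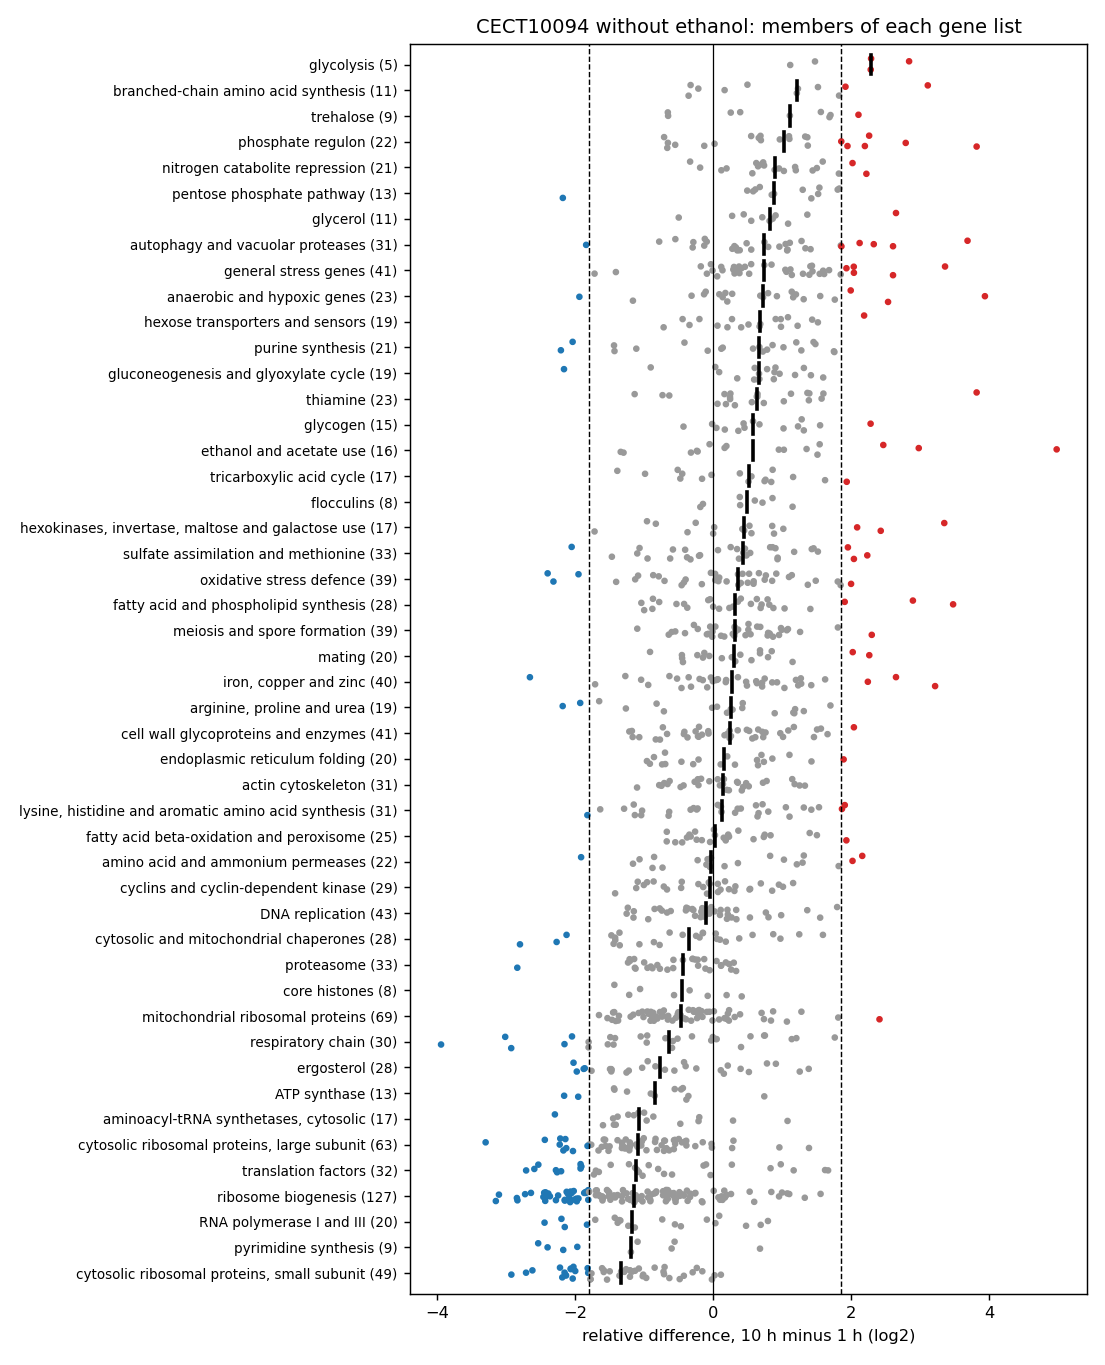
Relative difference of each measured member (points, 10 h minus 1 h, log2) in 48 gene lists of CECT10094 at 0% ethanol, with the list median as a black bar, the number measured in brackets and the limits of a call as dashed lines. Red points are called higher and blue points called lower, and the lists of protein synthesis, with medians between -1.34 and -1.08, lie at the bottom.

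ADH4, a zinc-responsive alcohol dehydrogenase, had the highest relative difference of the array. Its log2 ratios were 5.03 at 10 h and -0.52 at 1 h, a relative difference of 4.98 or 31.5-fold. In Temohaya-MI26 the same difference was 0.41, with 0.03 at 10 h and -0.82 at 1 h, and the difference between the strains was not tested. ZAP1, the transcription factor of the zinc response, had 1.98 at 10 h and -1.81 at 1 h, a relative difference of 3.21, close to that of Temohaya-MI26. The high-affinity zinc transporter ZRT1 had 2.54 at 10 h and -0.69 at 1 h, a relative difference of 2.65. In Temohaya-MI26 ZRT1 was at -0.07. ZPS1, a cell surface protein, was at 2.24 and VEL1, of unknown function, at 2.92.

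These values led to a list of 12 Zap1 targets that was drawn up after they had been seen. Of its members 5 were called higher, and the list median was 1.49, or 0.61 in Temohaya-MI26. The list holds ADH4, whose value led to it, so its count and median are no independent support. ZRG17 and the vacuolar transporter ZRT3 were at 1.57 and 1.42, and the vacuolar importer ZRC1 was the lowest at -0.39. ADH4 and ZRT1 are adjacent protein-coding genes near the left end of chromosome VII, and VEL1 lies on the other side of ADH4 beyond MNT2. In the wider list of iron, copper and zinc genes the median was 0.27, with 3 of 40 called higher, all 3 of them the zinc genes above, and 1 lower. That 1 was the copper transporter gene CTR3, at -2.51 at 10 h and -0.43 at 1 h, a relative difference of -2.66.

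Phosphate genes had a median of 1.03, and 6 of 22 were called higher (27.3%, against 2.89% of all ORFs) and none lower. PHO3, a phosphatase controlled by thiamine, is 1 of these 6 and is counted in the thiamine list as well. Its log2 ratios were 4.02 at 10 h and -0.38 at 1 h, a relative difference of 3.82. The repressible acid phosphatase PHO5 was at 2.12 at 10 h and -1.25 at 1 h, a relative difference of 2.79. PHO3 and PHO5 are neighbouring genes of closely similar sequence, so each spot may have taken up RNA of both. The vacuolar phosphatase PHO8 was at 2.26, PHO11, a near copy of PHO12, at 2.20 and the high-affinity transporter PHO84 at 1.94. The regulators PHO4 and PHO81 were at -0.55 and -0.71 and were not called. Without the genes of chromosomes I, III and the right arm of II, described below, the median was 0.71.

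Thiamine genes apart from PHO3 held no call. Their list had a median of 0.63 over 23 genes, from THI80, the pyrophosphokinase, at -1.14 upward. THI13, THI21, SNZ2 and SNZ3, which have near-identical relatives, lay between 1.38 and 1.60.

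**Figure D3:**
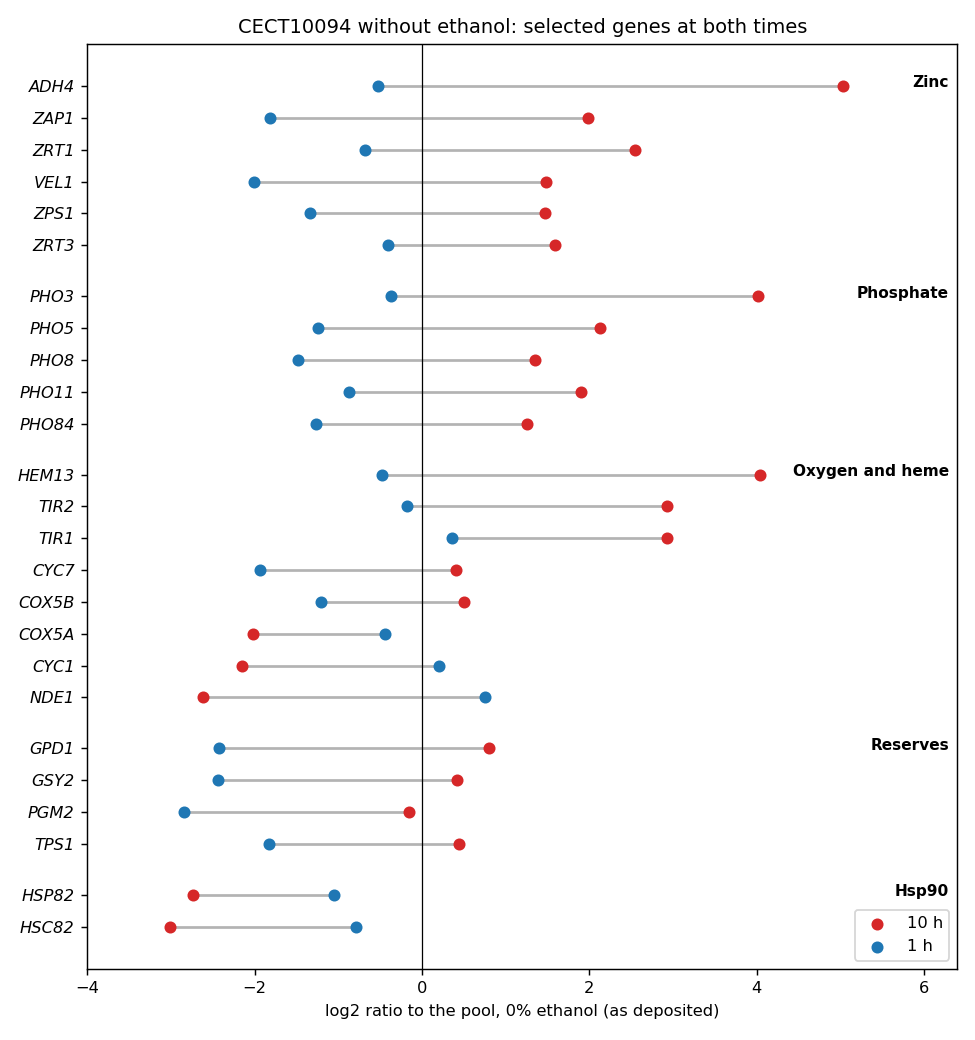
Log2 ratio to the pool, as deposited, at 10 h (red) and at 1 h (blue) for genes of zinc and phosphate supply, of oxygen and heme, of reserves and of Hsp90 in CECT10094 at 0% ethanol. ADH4 and HEM13 reached 5.03 and 4.04 at 10 h, and NDE1, CYC1 and both Hsp90 genes were lower at 10 h than at 1 h.

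Genes that respond to oxygen and heme moved in both directions. HEM13, the oxygen-requiring coproporphyrinogen oxidase of heme synthesis, which is repressed in air, had log2 ratios of 4.04 at 10 h and -0.47 at 1 h, a relative difference of 3.94. In Temohaya-MI26 it was 6.01, and the limma adjusted p over both strains was 0.0028. The other 7 measured genes of heme synthesis were not called, and HEM15 was the highest of them at 1.13. The cell wall mannoproteins TIR2 and TIR1, made in cold and in low oxygen, were at 2.53 and 1.99. ROX1, the heme-dependent repressor of such genes, was at -1.17 and was not called. The anaerobic list as a whole had a median of 0.72, with 3 of 23 called higher and 1 lower. The lower 1 was the ADP/ATP carrier AAC3, at -1.94.

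The respiratory chain had a median of -0.65, with 5 of 30 called lower (16.7%, against 2.86% of all ORFs) and none higher. This median was close in size to the 0.58 taken off every difference. The list also holds the regulators HAP1 to HAP5, none of them called. NDE1, the external NADH dehydrogenase of mitochondria, was the lowest ORF of the array. Its log2 ratios were -2.62 at 10 h and 0.75 at 1 h, a relative difference of -3.95 or 15.4-fold, and in Temohaya-MI26 it was -4.50. Its relatives NDE2 and NDI1 were at -0.03 and -0.01. The microsomal electron carrier CYB5, kept in this list, was at -1.59 at 10 h and 0.84 at 1 h, a relative difference of -3.02.

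The aerobic isoforms of 2 respiratory proteins were called lower, and their hypoxic isoforms had values above 0. CYC1, the main cytochrome c, had log2 ratios of -2.15 at 10 h and 0.20 at 1 h, a relative difference of -2.93. Its isoform CYC7 was at 0.40 at 10 h and -1.94 at 1 h, a relative difference of 1.76, which was not called. COX5A, a subunit of cytochrome oxidase, was at -2.02 at 10 h and -0.44 at 1 h, a relative difference of -2.16. Its isoform COX5B was at 0.51 at 10 h and -1.21 at 1 h, a relative difference of 1.14, not called. In Temohaya-MI26 the values were -1.95 for COX5A, 1.73 for COX5B and -0.11 for CYC7, and CYC1 had no value there at 1 h.

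ATP synthase genes had a median of -0.85, with ATP20 at -2.16 and ATP4 at -1.959 called lower of 13. Mitochondrial ribosomal proteins had a median of -0.47, and RSM22 was the only call of 69, higher, at 2.41. The tricarboxylic acid cycle had a median of 0.51, below the 2 control spots at 0.63 and 0.55, and of 0.13 in Temohaya-MI26. Of 17 members 1 was called, KGD1 of the oxoglutarate dehydrogenase, higher at 1.93. With its chromosome arm centred KGD1 was at 1.61, and the list held no call. The citrate synthase CIT1 was at -2.83 at 10 h and -2.02 at 1 h, a relative difference of -1.39, not called.

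Ergosterol synthesis, which also consumes oxygen, had a median of -0.77 with 4 of 28 called lower. ERG5 was at -2.03, ERG13 at -1.98, ERG6 at -1.88 and ERG7, the lanosterol synthase, at -1.86. With its chromosome arm centred ERG6 was at -1.78 and not called. Calls among the other lipid genes were higher. OPI3, a methyltransferase of phosphatidylcholine synthesis, had log2 ratios of 1.03 at 10 h and -3.02 at 1 h, a relative difference of 3.48. ELO1, an elongase of medium-chain fatty acids, was at 2.89, and OLE1, the oxygen-requiring desaturase, was at 1.90. The fatty acid and phospholipid list had a median of 0.32, and these 3 of 28 were its only calls.

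Carbon supply was followed through transporters and the enzymes of each route. Hexose transporters and sensors had a median of 0.67, and 1 of 19 was called higher (5.26%, against 2.89% of all ORFs). HXT7, a high-affinity transporter used at low glucose, had log2 ratios of 0.26 at 10 h and -2.50 at 1 h, a relative difference of 2.19. Its near-identical neighbour HXT6 was at 1.52. The low-affinity transporters of glucose-rich medium, HXT1 and HXT3, were at -0.45 and 0.20, and HXT5 was at 0.68. SUC2, the invertase gene repressed by glucose, was at -1.58 at 10 h and -4.24 at 1 h, a relative difference of 2.08, and was not called with its chromosome arm centred, at 1.76. EMI2, a relative of glucokinase, was at 3.35. GAL10 was at 2.43, but it overlaps the annotated gene YNCB0008W and had no value in Temohaya-MI26 at 10 h. Its neighbours GAL1 and GAL7 were at 0.88 and -0.0025 and were not called.

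Genes of growth on ethanol and other non-sugar carbon were followed in 3 lists. Gluconeogenesis and the glyoxylate cycle had a median of 0.67 with none of 19 called higher. FBP1, the fructose bisphosphatase, was at 0.15 at 10 h and -1.85 at 1 h, a relative difference of 1.41. PCK1 was at 0.66 and ICL1 at 0.90. SFC1, the mitochondrial succinate-fumarate carrier, was the only call and was lower, at -2.16. In the list for ethanol and acetate, with a median of 0.57, 3 of 16 genes were called higher, or 18.8% against 2.89% of all ORFs. Besides ADH4 these were ALD4, the mitochondrial aldehyde dehydrogenase, at -0.74 at 10 h and -4.30 at 1 h, a relative difference of 2.98, and the transporter gene ATO2 at 2.46. Beta-oxidation genes had a median of 0.02, with TES1 called higher of 25, at 1.93.

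Of 17 glycolytic genes, 10 were on the array and 5 had a value at both times. PFK1, a subunit of phosphofructokinase, was at 2.65 at 10 h and -0.77 at 1 h, a relative difference of 2.84. PYK2, the minor pyruvate kinase, was at 2.29 and TPI1, the triose phosphate isomerase, at 2.28. PGI1 and PFK2 were at 1.47 and 1.11. Their median of 2.28 covers too few members to describe the pathway. Outside the list, the enolase-related genes ERR3 and ERR2, which are near copies, were at 3.23 and 2.86.

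Reserve carbohydrates and glycerol had list medians above 0, and that of glycogen lay between the 2 control spots, at 0.63 and 0.55. Trehalose genes had a median of 1.11, and PGM2, the phosphoglucomutase, was called at 2.10. The synthase TPS1 had log2 ratios of 0.45 at 10 h and -1.83 at 1 h, a relative difference of 1.70, and the trehalases NTH1 and NTH2 were both at -0.66. None of these 3 was called. Glycogen genes had a median of 0.58, with the main glycogen synthase GSY2 called, at 0.42 at 10 h and -2.44 at 1 h, a relative difference of 2.28. In the glycerol list the median was 0.82, and GPD1, the first enzyme of glycerol synthesis, was at 0.80 at 10 h and -2.43 at 1 h, a relative difference of 2.65. The pentose phosphate pathway had a median of 0.88. GND2 and ZWF1, its NADPH-forming enzymes, were at 1.83 and 1.80, just short of the limit. RKI1, of the non-oxidative branch, was called lower at -2.18.

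General stress genes, a set induced by many stresses, had a median of 0.74, with 5 of 41 called higher (12.2%). TFS1, an inhibitor of carboxypeptidase Y, was at -0.10 at 10 h and -4.04 at 1 h, a relative difference of 3.36. The vacuolar protease PRB1 was at 2.60, SPI1 and the repressor XBP1 both at 2.04, and MSC1 at 1.93. XBP1 was no longer called with its chromosome arm centred, at 1.71. HSP12, a small membrane-stabilising protein with strong induction after glucose is gone, had log2 ratios of -5.14 at 10 h and -5.85 at 1 h, a relative difference of 0.13. Both ratios equal the lowest value of their column, so the difference says little of its course. SPG1 and SPG4, named for their role in stationary phase, were at 0.84 and 0.41. Of the sugar transporter, gluconeogenic and stationary-phase genes picked to describe the stage of the culture, namely HXT1, HXT3, HXT5, HXT6, HXT7, FBP1, PCK1, ICL1, SPG1, SPG4 and HSP12, only HXT7 was called. The list stood 1.54 below the column median at 10 h and 2.27 below it at 1 h, so its level relative to the pool was low at both times. The pool also held the RNA of the ethanol cultures.

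Calls among chaperones were lower. The cytosolic and mitochondrial list had a median of -0.35, and 3 of 28 were called, all lower (10.7%). The constitutive Hsp90 gene HSC82 had log2 ratios of -3.02 at 10 h and -0.79 at 1 h, a relative difference of -2.80. The inducible HSP82 was at -2.74 at 10 h and -1.05 at 1 h, a relative difference of -2.27. These genes are near copies. Their cochaperone YDJ1 was at -2.13. HSP26, HSP42 and HSP104 were at 0.87, 1.25 and 0.57, none called. Of the proteins that fold in the endoplasmic reticulum, PDI1, the disulfide isomerase, was the only call of 20, at 1.89, and it was no longer called once its chromosome arm was centred, at 1.51.

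Redox genes were split. TRR1, the thioredoxin reductase, was at -2.32 and the peroxiredoxin AHP1 at -1.95, both called lower, while GTT1, a glutathione transferase, was called higher at 2.00. GTT1 was at 1.46 with its chromosome arm centred and then not called. YHB1, which detoxifies nitric oxide, was at -1.10 at 10 h and 0.73 at 1 h, a relative difference of -2.40. It was at 0.28 in Temohaya-MI26. Proteasome genes had a median of -0.44, and 1 of 33 was called lower (3.03%), close to the 2.86% of all ORFs. It was the lid subunit RPN5, at -2.99 at 10 h and -0.73 at 1 h, a relative difference of -2.84.

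In the list of autophagy genes and vacuolar proteases the median was 0.74, with 5 of 31 called higher and 1 lower, and the other members were not called. Besides PRB1, the carboxypeptidase genes PRC1 and CPS1 were at 2.33 and 2.12. LAP3, the gene of a cytosolic aminopeptidase kept in this list, was at 1.86. PEP4, the activator of PRB1 and PRC1, was at 1.41, not called. ATG29 was at 3.79 at 10 h and -0.48 at 1 h, a relative difference of 3.68, but it overlaps SET6, which was at 1.22. ATG8, the ubiquitin-like protein of the autophagosome, was called lower at -1.84 and was not called with its arm centred, at -1.57.

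Genes under nitrogen catabolite repression, which are silent while good nitrogen sources last, had a median of 0.89, with 19 of 21 above 0. GAP1, the general amino acid permease, had log2 ratios of 2.19 at 10 h and -0.40 at 1 h, a relative difference of 2.02. UGA1, of 4-aminobutyrate use, was at 2.22, and GDH2 at 1.82 was not called. Among the permeases, OPT2 was called higher at 2.16 and the glutamine permease GNP1 lower at -1.92. BAT2, the cytosolic branched-chain aminotransferase, was at 2.57 at 10 h and -1.12 at 1 h, a relative difference of 3.11, against 0.96 in Temohaya-MI26. With LEU4 at 1.92 it made 2 calls of 11 in the branched-chain list, whose median was 1.21, or 0.52 without the genes of chromosomes I, III and the right arm of II.

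Other amino acid routes gave calls in both directions. The sulfate genes MET14, MET3 and MET8 were called higher, at 2.23, 2.04 and 1.95, and SAM4 lower, at -2.05, around a list median of 0.43. In the list of lysine, histidine and aromatic amino acids HIS4 was at 1.91, TRP5 at 1.86 and ARO7 at -1.83. HIS4 was no longer called with its arm centred, at 1.52. Of the arginine, proline and urea genes, CAR2 at -2.18 and CPA1 at -1.93 were called lower.

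Several of the genes furthest from 0 belonged to no list. WTM1, a transcriptional modulator, had log2 ratios of 2.53 at 10 h and -2.21 at 1 h, a relative difference of 4.16, and it was 4.20 in Temohaya-MI26. CYR1, the adenylate cyclase of the Ras and protein kinase A pathway, was at 2.48 at 10 h and -2.08 at 1 h, a relative difference of 3.98, and 5.37 in Temohaya-MI26. The plasma membrane transporter FEN2, for pantothenate, was at 3.62, the mitochondrial protein AIM17 at 3.36, the exosome subunit RRP43 at 3.17 and the polyamine transporter TPO5 at 3.11. Both WTM1 and CYR1 had a limma adjusted p under the threshold, 0.0015 and 0.0018.

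At the lower end, SSS1, a subunit of the translocon that carries proteins into the endoplasmic reticulum, was at -1.79 at 10 h and 0.68 at 1 h, a relative difference of -3.05. FAR10, of the pheromone arrest complex, was at -2.89. SLM6 was at -2.80, and it overlaps REI1, a factor of ribosome maturation that was at -2.25. Among called ORFs in the reference annotation, 9 called higher (including PHO84 and GAL10) and 5 called lower (including EFB1) overlap another annotated gene. These spots cannot assign them to 1 transcript. That annotation gave a length for 161 of the 173 ORFs called higher and 155 of the 171 called lower. The others were not checked for overlap.

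**Figure D4:**
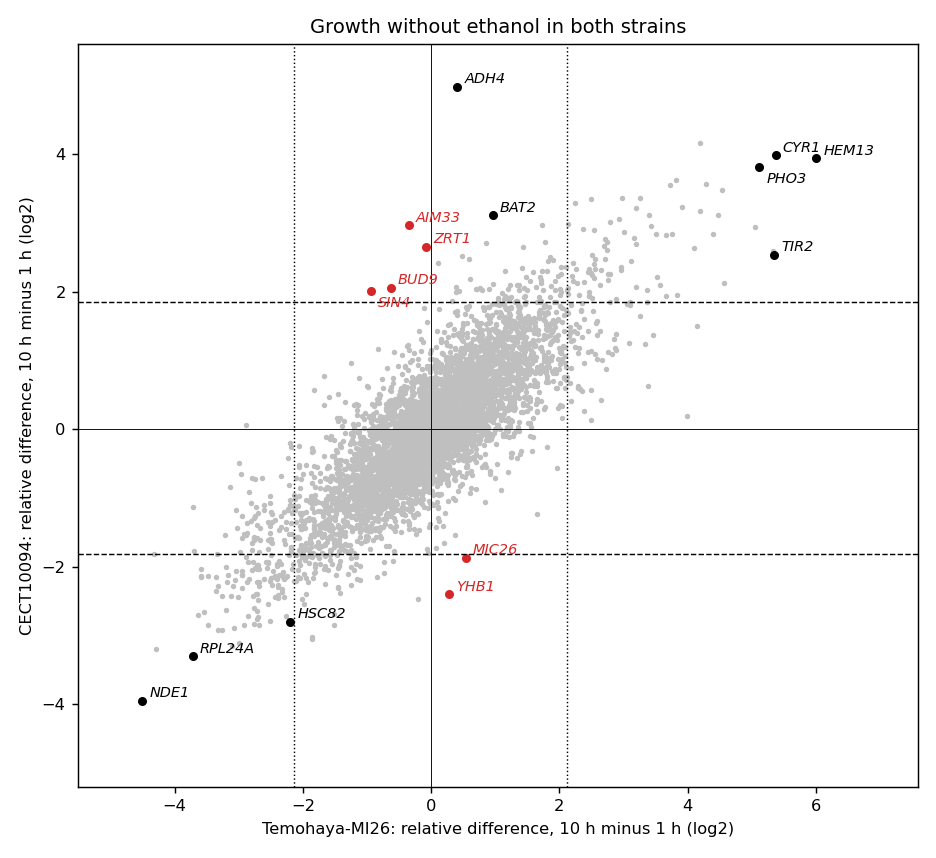
Relative difference at 0% ethanol, 10 h minus 1 h (log2), in CECT10094 (vertical axis) against Temohaya-MI26 (horizontal axis) for each ORF measured in both, with the limits of a call in each strain as dashed and dotted lines. Genes named in red had opposite signs, and ADH4 was at 4.98 in CECT10094 and 0.41 in Temohaya-MI26.

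The same contrast in Temohaya-MI26 shares no sample with that of CECT10094 except through the pool. Over 5542 ORFs the Pearson correlation of the relative differences was 0.824 and the Spearman correlation 0.808, across genes, which are not independent replicates. Both strains called 78 ORFs higher, 51.0% of the 153 of CECT10094 and 56.1% of the 139 of Temohaya-MI26, which called 2.57% of its ORFs higher. They called 98 lower, 58.3% of the 168 of CECT10094 and 54.7% of the 179 of Temohaya-MI26, which called 3.3% lower. The sign was the same for 315 of the 321 ORFs that CECT10094 called, against 80.8% of all ORFs. A difference between the strains was not tested.

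In 10% ethanol the late CECT10094 sample was taken at 28 h, so its course is given beside that without ethanol and not matched to it. Across 5924 ORFs the relative differences of the courses had a Pearson correlation of -0.439 and a Spearman correlation of -0.460. Of the ORFs called without ethanol that had a value, 135 of 164 higher and 147 of 168 lower had the opposite sign in ethanol, and 33.3% of all ORFs had the same sign. Small-subunit ribosomal proteins had a median of -1.34 without ethanol and 1.86 in ethanol. RPL24A was at -3.30 without ethanol and 2.96 in ethanol. ALD4 was at 2.98 without ethanol and -3.22 in ethanol. HXT7 was above 0 in both courses, at 2.19 without ethanol and 1.38 in ethanol, and so were HEM13 at 3.94 and 1.14 and PHO3 at 3.82 and 1.11.

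**Figure D5:**
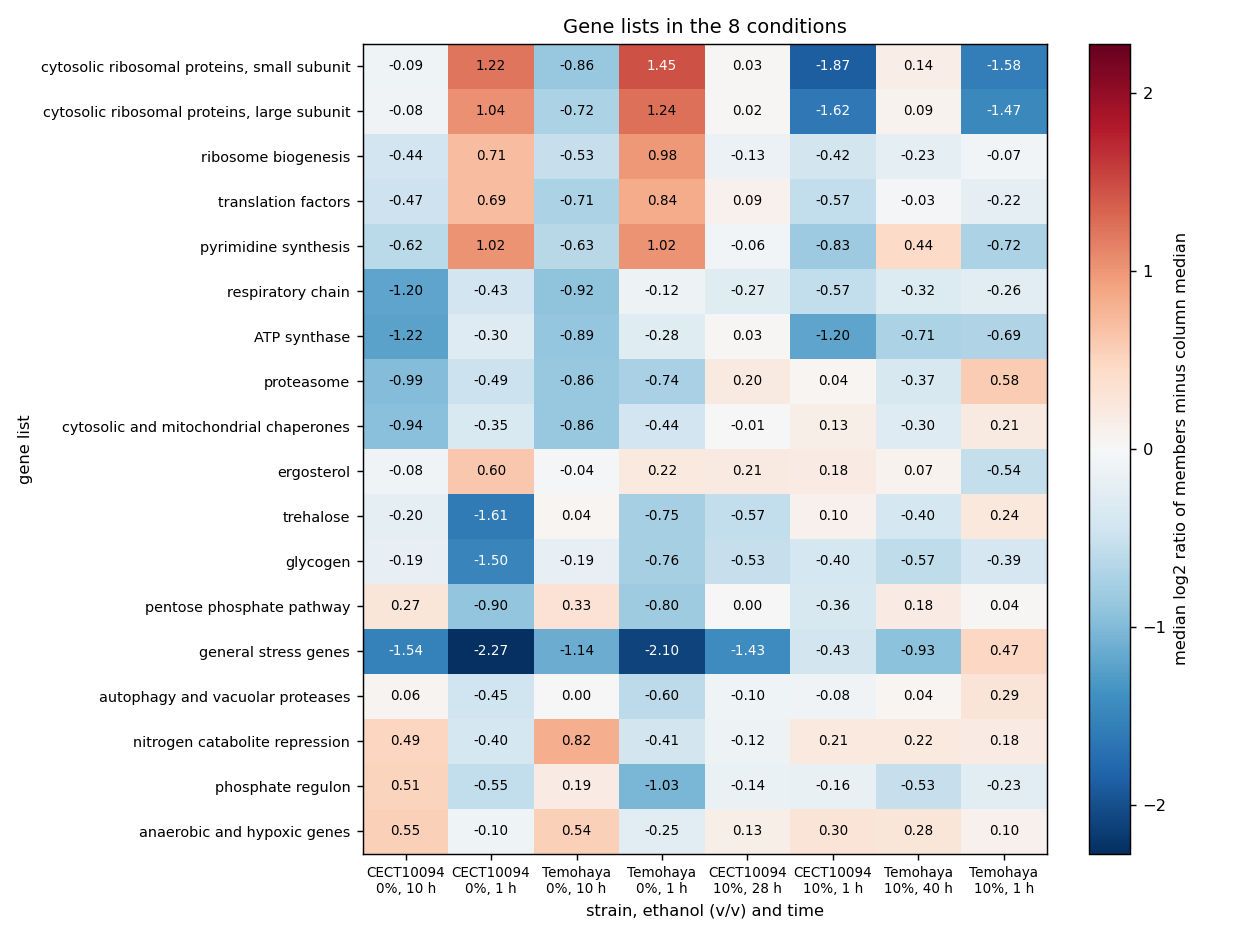
Median log2 ratio of the members of 18 gene lists minus the column median (colour and printed value) in the 8 conditions, each late column beside its 1 h column. Small-subunit ribosomal proteins in CECT10094 without ethanol were at -0.09 at 10 h and 1.22 at 1 h, and at -1.87 after 1 h in 10% ethanol.

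Position on the chromosomes moved with the values. The 604 ORFs of chromosomes I and III and of the right arm of chromosome II had a median relative difference of 0.21, against -0.02 for the 5376 ORFs elsewhere. Among them 29 were called higher (4.80%) and 9 lower (1.49%), against 2.68% and 3.01% elsewhere. Their median log2 ratio minus the column median was 0.45 at 10 h and 0.20 at 1 h. In Temohaya-MI26 the median of these arms was 0.51. The right arm of II, where PHO3 and PHO5 lie, was at 0.06 and thus close to the rest. Chromosome IX was also raised, with medians of 0.32 on its left arm and 0.54 on its right arm. There the column values minus the column median were 0.07 at 10 h and -0.20 at 1 h on the left arm, and 0.13 at 10 h and -0.29 at 1 h on the right arm. GTT1, KGD1, XBP1 and SUC2 lie on chromosome IX. PHO3, PHO5, PHO11, FEN2, RRP43, HIS4 and PDI1 lie on chromosomes I, III and the right arm of II. With its arm median taken off, PHO3 was at 3.76, FEN2 at 3.36 and RRP43 at 2.91. The part of position in these results was not tested.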

How the data were processed

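The authors removed poor spots, subtracted a global background (GenePix Pro 6.0), normalized ratios (Acuity 4.0), took the median over the slides of a condition and kept spots with at least 2 replicates. The deposited values are log2 ratios of sample to pool. A second deposited table, of the authors' differences between 10 and 0% ethanol, was not used. The build was not given in the sources used here, and the RefSeq table of R64 served for names and neighbours only (5653 of 6152 ORFs matched).

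The 1 h value was subtracted from the 10 h value and the median difference removed (Python 3.11.15, pandas 2.3.3). limma 3.58.1 (R 4.3.3) used all 8 columns, centred on their medians, with a block per strain and ethanol level, a stage term per ethanol level and Benjamini-Hochberg adjustment. Tested on simulated data of 5359 genes, it recovered 10.4%, 89.6% and 100% of log2 changes of 1, 2 and 3 and called 0.14% of unchanged genes. The simulated noise was independent and of the size the fit estimated, and few genes were changed, alike in both strains. These rates therefore need not hold for the real columns.

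Named genes were the 15 highest and 15 lowest called genes, up to 5 called members per list and direction, and the extremes of lists with fewer than 2 calls. Others were named after their values were seen. Members and the 48 lists were chosen with earlier results of these data known, and 2 lists (Zap1 targets, heme synthesis) were added after the values were seen. No promoter was read. Alternatives covered limits, centring, quantile normalization, chromosome arms and the ORFs included. The number of arrays limits the precision.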

Additional observations from a re-analysis of the deposited data

Results flagged for a closer look

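In 6 genes called in CECT10094 without ethanol, the relative difference of Temohaya-MI26 had the opposite sign. These differences between strains were not tested. The zinc transporter gene ZRT1 had a relative difference of 2.65, against -0.07 in the agave strain. BUD9, a marker of bud site choice, stood at 2.05 and, in Temohaya-MI26, at -0.63. For SIN4, a subunit of the Mediator complex, CECT10094 gave 2.01 and the other strain -0.94. AIM33 reached 2.96, against -0.34. The nitric oxide dioxygenase gene YHB1 was lower at 10 h in the flor strain, at -2.40, whereas Temohaya-MI26 stood at 0.28. MIC26, of the mitochondrial inner membrane, was at -1.87, against 0.54.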

How the results depend on the processing

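Slides were combined before deposit, so no slide could be left out. No paired analysis was possible because the labels carry no replicate numbers, and limma matched late and 1 h columns by strain and ethanol level only. The counts of called ORFs, 173 higher and 171 lower, became 61 and 45 with the limits widened to 2.43 and -2.39, 787 and 728 at a relative difference of 1, and 1861 and 261 where the difference was not taken relative to its median, with a limit of 1. That centring moved the share of calls that were higher to 87.7%, against 50.3%, since the median of all ORFs was 0.58. Quantile normalization gave 145 and 206 (41.3% higher). Median and MAD gave 242 and 222. Over both strains limma called 755 higher and 603 lower. It called 1322 and 299 without centring, 46 and 96 after quantile normalization and 1135 and 897 with the 4 columns without ethanol alone. The cause of these shifts was not tested. No named gene changed sign among those called. With arms centred 8 lost their call (ATG8, HIS4, PDI1, XBP1, KGD1, SUC2, GTT1, ERG6), and after quantile normalization 11 did (MET8, HIS4, PDI1, TIR1, SPI1, TRP5, SUC2, GAP1, MSC1, LEU4, LAP3). List medians changed sign without the median removed for mitochondrial ribosomal proteins (0.11), chaperones (0.23), proteasome (0.14), permeases (0.54), histones (0.12), cyclins (0.53) and DNA replication (0.47). After quantile normalization, beta-oxidation (-0.0062) and actin (-0.0001) changed sign. Without chromosomes I, III and the right arm of II, endoplasmic reticulum folding (-0.03), lysine, histidine and aromatic amino acids (-0.0575) and permeases (0.0885) did so. Permeases also did with arms centred (0.048) and as a mean (0.23), and cyclins over ORFs measured in all columns (0.11).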

Other observations

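Lists of growth and differentiation held few calls. None of the 29 cyclin genes, 43 replication genes, 31 actin genes, 8 measured histone genes or 8 flocculin genes was called. At the shares of all ORFs, 2.89% higher and 2.86% lower, lists of this size would also hold few calls. The medians were -0.05 for cyclins, -0.11 for replication, 0.14 for actin, -0.46 for histones and 0.50 for flocculins. HHT2, a histone H3 gene, was at -1.43 and RNR4, a subunit of ribonucleotide reductase, at 1.79. In the mating list STE3, the gene of the a-factor receptor, was at 2.46 at 10 h and -0.38 at 1 h, a relative difference of 2.26, and PRM1, of cell fusion, was at 2.02. The septin SPR28, made in sporulation, was at 2.30 and was the only call of 39 meiotic genes.

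The cell wall list had a median of 0.24, and its only call of 41 was SPI1. CCW12 was at 1.66, BGL2 at 1.56 and CWP1 at -1.22. Among the ORFs with no gene name, YDL211C was at 2.79 at 10 h and -1.36 at 1 h, a relative difference of 3.57, and YKL222C was at 3.12. YOR309C was at -1.62 at 10 h and 0.99 at 1 h, a relative difference of -3.19, and YJL188C was at -2.91. By systematic name YOR309C lies beside NOP58 (YOR310C), at -2.05, and YJL188C beside RPL39 (YJL189W), at -1.28. Overlap was looked for only within the reference annotation, so their spots may also have taken up RNA of these neighbours. Genes called higher had a median length of 1365 bases and genes called lower of 945 bases, against 1254 bases for all genes with a length, and the Spearman correlation of length with the relative difference across ORFs was 0.045.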
